A study of Homo sapiens with 18 samples.

Results

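The genes described here carry the decision of a cell to leave G1 and copy its DNA: the 3 D-type cyclins (CCND1, CCND2, CCND3), the kinases CDK4 and CDK6 that they switch on, the INK4 inhibitors CDKN2A, CDKN2C and CDKN2D, the KIP inhibitor CDKN1B, and RB1, the substrate of those kinases. They are 10 genes, chosen by name and not by any measured value, and all 10 were found by symbol or Ensembl identifier among the 37256 genes of DU145, the 25716 of 22Rv1 and the 22360 of C4-2B. RNA was sequenced in 18 libraries of prostate cancer lines, with 3 control and 3 EMD knockdown libraries for each line. C4-2B descends from the androgen-responsive LNCaP line and forms bone metastases, 22Rv1 was grown out of a relapsed xenograft, and DU145 comes from a brain metastasis. EMD encodes emerin, a protein of the inner nuclear membrane.

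Control cells received a scrambled siRNA and knockdown cells an siRNA against EMD, both by lipid transfection, with the transfection mix taken off after 24 hours. The DU145 knockdown libraries are named shEMD, a prefix usually given to hairpin vectors, so the reagent used in that line is uncertain. C4-2B and 22Rv1 were kept in RPMI-1640 and DU145 in DMEM, all with serum. Libraries are numbered 1 to 3 in each group with no word on separate cultures, so the p-values below measure the spread between these libraries, which may be technical. Line, batch label and count table coincide, and for DU145 the medium as well, so their parts in any difference between lines cannot be told apart.

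D cyclins are the mitogen-responsive partners of CDK4 and CDK6. The active kinases phosphorylate the retinoblastoma protein RB, which then releases E2F transcription factors, and E2F factors turn on genes of DNA replication. INK4 proteins bind CDK4 and CDK6 and block them, whereas the KIP protein p27, the product of CDKN1B, inhibits the CDK2 complexes and also rides on cyclin D complexes. DU145 is known for a truncating mutation of RB1, and cells that lack working RB commonly carry much p16, the INK4A product of CDKN2A. Cyclin D and p27 are controlled largely through protein turnover, which RNA counts do not measure.

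EMD, the knockdown target, fell by 3.07 ± 0.11 (log2, SE) in C4-2B, by 1.73 ± 0.07 in 22Rv1 and by 3.21 ± 0.08 in DU145. Knockdown was thus less deep in 22Rv1, with response differences of -1.29 ± 0.14 (C4-2B less 22Rv1) and 1.42 ± 0.14 (22Rv1 less DU145). The part of this gap in the differences of response between lines below was not tested. Depth lay between 14722733 and 25112148 reads per C4-2B library, 15602874 and 30788078 for 22Rv1, and 21024352 and 43311727 for DU145. Replicate libraries of a group differed by more than counting noise (chi-square over its degrees of freedom, 2.31 to 8.40). The luminal markers KRT8, KRT18, EPCAM, KLK3, HOXB13 and TMPRSS2 were all detected in C4-2B and 22Rv1, while KLK3, HOXB13 and TMPRSS2 lay under 1 CPM in DU145. The summed level of these 6 markers was lower after knockdown in every line: 3103 to 3157 against 2316 to 2444 CPM in C4-2B, 1783 to 1911 against 1347 to 1357 in 22Rv1, and 2019.9 to 2181 against 1001 to 1097 in DU145. Fewer cells of a kind and less RNA per cell cannot be told apart in such bulk libraries, and the part of this shift in the results below was not tested. The measured basal markers summed to at most 54.8 CPM in C4-2B and 22Rv1 and to 931 to 1060 CPM in DU145 controls, where KRT5 and KRT14 were under 1 CPM. The measured fibroblast, endothelial and blood markers each summed to under 100 CPM in every library. Several of these markers (among them KRT5, TP63, PECAM1 and PTPRC in C4-2B) have no row in a line's table and were not analysed here. In 22Rv1 the endothelial sum went from between 32.6 and 42.9 to between 6.94 and 7.95 CPM and the fibroblast sum from between 24.6 and 28.9 to between 6.69 and 8.77. In DU145 the blood sum went from between 94.5 and 95.2 to between 28.5 and 31.1 CPM, with PTPRC, CD3E, LYZ, HBB and SPI1, all but CD68 of the 6 summed, each under 1 CPM.

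Start-site sequence from RefSeq (GRCh38.p14, 250 bases before to 50 after a transcript start) was at hand for 8 of the 10 genes; CCND1 and CCND2 were not among them. Shown are those of the inhibitor genes with the sharpest changes, CDKN2C (which fell in C4-2B) and CDKN1B (which rose in 22Rv1), and both starts of CDKN2A, because reads from its 2 transcripts, p14ARF and p16INK4A, are merged in 1 count. Capitals mark GC boxes (GGGCGG) and the core of E2F sites (TTCCCGC), each on either strand.
CDKN2C, chr1:50968456-50968755, plus strand: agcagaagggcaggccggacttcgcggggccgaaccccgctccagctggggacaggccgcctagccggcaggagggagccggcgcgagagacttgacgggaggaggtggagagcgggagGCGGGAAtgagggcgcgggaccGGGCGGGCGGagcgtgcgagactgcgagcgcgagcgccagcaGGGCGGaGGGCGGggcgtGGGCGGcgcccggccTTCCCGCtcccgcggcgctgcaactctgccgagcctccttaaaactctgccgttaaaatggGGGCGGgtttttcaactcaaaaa
CDKN1B, chr12:12717118-12717417, plus strand: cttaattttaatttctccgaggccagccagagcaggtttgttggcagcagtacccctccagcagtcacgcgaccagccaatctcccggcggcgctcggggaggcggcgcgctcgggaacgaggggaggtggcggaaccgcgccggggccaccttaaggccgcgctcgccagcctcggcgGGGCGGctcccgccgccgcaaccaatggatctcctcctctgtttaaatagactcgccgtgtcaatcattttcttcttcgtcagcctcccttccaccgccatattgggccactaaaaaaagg
CDKN2A, upstream start (p14ARF), chr9:21995275-21995574, minus strand: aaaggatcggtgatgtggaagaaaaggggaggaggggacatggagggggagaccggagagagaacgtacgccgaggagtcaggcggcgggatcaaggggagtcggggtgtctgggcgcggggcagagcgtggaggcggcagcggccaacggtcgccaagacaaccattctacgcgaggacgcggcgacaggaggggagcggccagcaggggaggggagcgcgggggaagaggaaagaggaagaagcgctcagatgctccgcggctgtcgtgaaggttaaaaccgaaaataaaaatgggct
CDKN2A, downstream start (p16INK4A), chr9:21974808-21975107, minus strand: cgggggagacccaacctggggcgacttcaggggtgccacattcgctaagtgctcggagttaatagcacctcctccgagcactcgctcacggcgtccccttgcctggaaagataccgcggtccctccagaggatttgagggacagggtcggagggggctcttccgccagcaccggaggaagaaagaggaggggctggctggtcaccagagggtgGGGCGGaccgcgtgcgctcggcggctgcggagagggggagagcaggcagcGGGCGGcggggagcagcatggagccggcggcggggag
This CDKN2C window, 1 of 3 RefSeq starts of the gene, holds 6 GC boxes, of which 2 overlap each other, and 2 E2F cores. It was picked as the one with most matches; the other 2 windows hold no E2F core and 0 or 1 GC boxes. CDKN1B has 1 GC box, the downstream CDKN2A start has 2, and the upstream one has none. Of 35116 RefSeq start windows of this length, 45% hold a GC box and 6.55% an E2F core. The 8-letter forms TTTGGCGC, TTTCCCGC, TTTGCCGC and TTTCGCGC were in no window of the 8 genes and in 3.31% of all windows. The only RB1 window (chr13:48476200-48476499) lies inside the gene, which starts at 48303726, so the sequence around that first start was not searched. A match describes letters only and was not tested as a site.

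Control cells of the 3 lines differed in nearly all of these genes, CDKN2A by the most among the 9 genes with reads in every group, followed by CCND1 and CDKN2D with gaps close to each other. Levels between lines are given in CPM (read counts scaled to the library's size) scaled over all 18 libraries, and line against line was tested in edgeR across 17152 genes. CCND1, which encodes cyclin D1, stood at 211 ± 5.82 CPM in C4-2B, 604 ± 19.4 in DU145 and 2204 ± 71.0 in 22Rv1 (mean ± SD, n = 3 per line). The log2 difference of 22Rv1 less DU145 was 1.87 ± 0.04 (SE, adjusted p = 7.18e-31) and that of C4-2B less DU145 was -1.52 ± 0.04 (adjusted p = 3.5e-28). CDKN2A was at 0.64 ± 0.29 CPM in C4-2B, 39.2 ± 5.30 in 22Rv1 and 401 ± 10.3 in DU145, with log2 differences of -5.92 ± 0.17 (C4-2B less 22Rv1) and -3.37 ± 0.07 (22Rv1 less DU145). Its C4-2B controls held only 13, 6 and 19 reads, against 7710 to 15815 in DU145. Whether the DU145 level goes with the RB1 mutation of that line was not tested. Of the 9 genes with reads in every group, 8 differed between C4-2B and 22Rv1, 9 between C4-2B and DU145, and 7 between 22Rv1 and DU145. Such differences were common, with 78.4%, 83.1% and 83.8% of all tested genes past the threshold in the same comparisons.

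CDK4 ran from 87.2 ± 3.64 CPM in DU145 through 173 ± 2.71 in C4-2B to 286 ± 4.53 in 22Rv1, and each step passed the test. CDK6, the second cyclin D kinase, was low in C4-2B at 12.1 ± 1.28 CPM and alike in 22Rv1 (52.6 ± 4.98) and DU145 (54.5 ± 1.99), which differed by -0.05 ± 0.07 (adjusted p = 0.521). CCND3 went in the order DU145 (38.5 ± 2.09), C4-2B (46.1 ± 2.74) and 22Rv1 (71.8 ± 2.90), again with each step past the test. CDKN1B followed the same order at 49.2 ± 0.61, 75.5 ± 3.10 and 121 ± 3.68 CPM. CDKN2D, the INK4 gene of p19, spanned 5.98 ± 0.52 CPM in DU145, 16.6 ± 1.43 in C4-2B and 62.1 ± 1.43 in 22Rv1. CDKN2C, the INK4 gene of p18, was at 20.8 ± 2.25 CPM in C4-2B, below 52.5 ± 5.32 in 22Rv1 and 56.0 ± 2.42 in DU145. The last pair did not pass (-0.10 ± 0.09, adjusted p = 0.313). RB1 transcripts were present in all lines, DU145 included, where they were highest (79.3 ± 3.83 CPM). C4-2B (61.9 ± 1.58) and 22Rv1 (58.1 ± 3.63) differed by 0.09 ± 0.06 (adjusted p = 0.126), a pair that passed narrowly with another size factor (adjusted p = 0.0499) and without 22Rv1 control 1 (adjusted p = 0.0399).

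**Figure D1:**
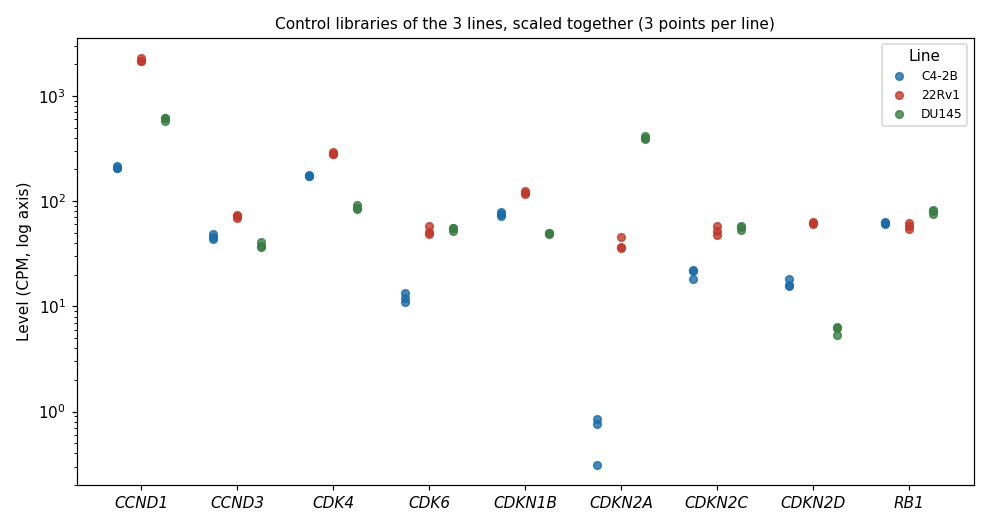
Level of 9 of the 10 genes in the 3 control libraries of each line (points, CPM scaled over 18 libraries, log axis; CCND2 is left out because C4-2B controls hold no read of it). CDKN2A has the largest span, from 0.64 ± 0.29 CPM in C4-2B to 401 ± 10.3 in DU145; CCND1, from 211 ± 5.82 in C4-2B to 2204 ± 71.0 in 22Rv1, and CDKN2D, from 5.98 ± 0.52 in DU145 to 62.1 ± 1.43 in 22Rv1, have close spans.

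Levels of different genes can be set side by side only per length, so CPM was divided by the kilobases of merged exons in GENCODE 29. On that scale CCND1 was the leading D cyclin in the controls of every line: 44.2 ± 1.2 against 8.04 ± 0.47 for CCND3 in C4-2B, 457 ± 13.7 against 12.4 ± 0.62 in 22Rv1, and 116 ± 2.52 against 6.14 ± 0.29 in DU145. CDK4 exceeded CDK6 in each, with 55.4 ± 0.92 against 1.00 ± 0.11 CPM per kilobase in C4-2B, 90.3 ± 1.14 against 4.30 ± 0.39 in 22Rv1 and 25.5 ± 0.89 against 4.11 ± 0.10 in DU145. Among the inhibitors CDKN1B, CDKN2A, CDKN2C and CDKN2D, CDKN1B led in C4-2B (27.2 ± 1.14) and CDKN2A in DU145 (85.6 ± 1.42). Inhibitors described further below, CDKN1A among them, were not put on this scale and are not ranked. In 22Rv1 CDKN1B (43.0 ± 1.27) and CDKN2D (41.4 ± 1.39) were within each other's spread. CDKN2A was at 0.150 ± 0.067 CPM per kilobase in C4-2B. After knockdown CDKN1B alone led the ranked inhibitors in 22Rv1, at 92.3 ± 0.70 against 28.9 ± 0.36 for CDKN2D. In C4-2B, CCND1 (46.6 ± 0.94) and CDK4 (46.5 ± 1.44) then stood level.

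CCND2, which encodes cyclin D2, was close to silent. Its reads numbered 0 in the C4-2B controls and 7 in the knockdown, 10 in the 22Rv1 controls and 0 in the knockdown, and 115 and 138 in DU145. Set against 3 reads over the libraries of the empty arm, knockdown stood 2.80-fold higher in C4-2B and 2.51-fold lower in 22Rv1. These ratios allow for counting error in the empty arm only, not in the 7 and 10 reads, so they are no lower bounds. The gene was too low to be tested in either line. In DU145, the controls were at 2.00, 0.84 and 1.13 CPM and the knockdown libraries at 1.46, 0.95 and 1.62, with a log2 fold change of 0.09 ± 0.31 (adjusted p = 0.852). The arms overlapped.

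In C4-2B, 4 genes of the cyclin D machinery fell clearly after EMD knockdown and none rose. They were the INK4 inhibitors CDKN2C and CDKN2D, the cyclin CCND3 and the kinase CDK4; RB1 also fell, by little. CDKN2C read 22.2, 18.5 and 22.7 CPM in the 3 controls, in order of their number, and 8.76, 8.16 and 5.35 in the 3 knockdown libraries; CPM is scaled within the line from here on. Every knockdown library lay below every control, and the log2 fold change was -1.51 ± 0.15 (adjusted p = 3.06e-08), or 2.85-fold. CDKN2D went from 15.9, 16.0 and 18.5 CPM to 9.71, 8.72 and 10.5, again without overlap (-0.81 ± 0.12, adjusted p = 7.37e-06). CCND3, the gene of cyclin D3, went from 44.5, 49.8 and 45.7 CPM to 32.1, 28.2 and 27.6 (-0.67 ± 0.08, adjusted p = 9.97e-08), and here too the arms were apart. CDK4 moved less, from 179, 174 and 174 CPM to 152, 148 and 143 (-0.25 ± 0.04, adjusted p = 2.24e-05), though its arms also stood apart. TSPAN31, whose gene overlaps CDK4 on the other strand, rose instead (0.47 ± 0.08). As the kit's strandedness is not given, reads of such neighbours cannot be told apart.

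RB1 of C4-2B read 62.5, 61.2 and 64.4 CPM in controls and 58.1, 56.7 and 54.3 after knockdown. The arms did not overlap, and the fold change was -0.15 ± 0.06 (adjusted p = 0.0343). This call was lost in DESeq2 (adjusted p = 0.0661) and with library totals in place of TMM scaling (0.162). It was also lost without control 1 (0.0655), control 3 (0.130), knockdown 2 (0.0613) or knockdown 3 (0.126). CCND1 gave 209.8, 210.5 and 220.1 CPM in controls and 224, 221 and 230.2 after knockdown, 0.08 ± 0.04 (adjusted p = 0.129), and it passed with library totals (0.0113). CDKN1B was at 76.5 ± 3.20 and 75.8 ± 3.97 CPM (-0.014 ± 0.06, adjusted p = 0.862). CDK6, at 11.0, 13.6 and 12.2 CPM in controls, read 16.7, 13.0 and 16.0 after knockdown with overlap (0.30 ± 0.13, adjusted p = 0.0594). It passed without knockdown 2 (0.0211), without control 2 (0.0383), with library totals (0.0280) and in a fit of all 18 libraries (0.0184). CDKN2A went from 0.65 ± 0.29 to 1.29 ± 0.25 CPM (1.00 ± 0.48, adjusted p = 0.0995), which passed only in the 18-library fit (0.0365).

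Of the 9 genes tested in C4-2B, 5 fell, 0 rose and 4 did not pass, with a median log2 fold change of -0.15. Across the line 41.7% of 15801 tested genes were past the threshold, 22.3% lower and 19.4% higher, with a median of 0.013. With library totals the share of rises among called genes went from 46.6% to 57.0%. The arms did not overlap for 7 of the 9 and for 50.5% of all tested genes. In the fit of all 18 libraries, 8 genes passed in place of 5. CDK6 and CDKN2A joined, and CCND2, too low to be tested within the line, is counted among the 8.

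In 22Rv1 the inhibitors split: CDKN1B rose, whereas CDKN2A and CDKN2D fell. RB1 rose, the kinase CDK6 fell, and CDK4 and CCND1 rose by smaller steps. CDKN1B went from 117, 122 and 124 CPM in its controls to 257, 259.95 and 261 after knockdown. The groups lay far apart, and the log2 fold change was 1.10 ± 0.04 (adjusted p = 1.36e-15), or 2.15-fold. RB1 rose from 61.5, 58.9 and 54.0 CPM to 93.0, 87.2 and 92.2, also without overlap (0.65 ± 0.05, adjusted p = 1.78e-09). RCBTB2, which overlaps RB1 on the other strand, rose as well, from 1.89 to 6.47 CPM (1.73 ± 0.20); counts without strand could exchange reads between them. CDK4 rose from 282, 287 and 289 CPM to 365, 359 and 364 (0.34 ± 0.03, adjusted p = 1.29e-08), while its overlapping neighbours TSPAN31 (-0.93 ± 0.07) and MARCH9 (-0.35 ± 0.06) fell.

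Falls in 22Rv1 were those of 2 INK4 genes and CDK6. CDKN2A went from 35.9, 46.0 and 36.1 CPM to 22.0, 22.6 and 24.6 (-0.76 ± 0.09, adjusted p = 1.67e-06). CDKN2D went from 60.9, 64.7 and 61.2 CPM to 43.2, 44.1 and 43.1 (-0.51 ± 0.05, adjusted p = 4.25e-08). CDK6 went from 58.2, 49.9 and 49.99 CPM to 36.5, 35.7 and 39.0 (-0.51 ± 0.07, adjusted p = 1.23e-06). In all 3 genes each knockdown library was below each control. Genes of similar level in this line had median fold changes of 0.09, 0.12 and 0.14, so the falls ran against their neighbours in abundance. At the levels of CDKN1B, RB1, CDK4 and CCND1 the medians were 0.17, 0.12, 0.12 and 0.04, the direction of those rises.

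The D cyclins of 22Rv1 moved little. CCND1, already the most abundant, rose from 2280.4, 2189.5 and 2151 CPM to 2503, 2509 and 2476 (0.18 ± 0.03, adjusted p = 1.69e-05) without overlap. CCND3 read 72.4, 75.2 and 68.1 CPM in controls and 78.9, 81.2 and 79.0 after knockdown (0.15 ± 0.05, adjusted p = 0.0107). That rise did not pass without control 3 (adjusted p = 0.0589), with library totals (0.204) or in the 18-library fit (0.151), and genes of its level had a median of 0.12. CDKN2C was at 52.6 ± 5.90 and 55.7 ± 4.67 CPM, with overlapping arms (0.09 ± 0.08, adjusted p = 0.331). Of the 9 tested genes 5 rose and 3 fell, with a median of 0.15, in a line where 67.8% of 16656 genes passed, 33.5% higher and 34.3% lower, with a median of -0.0038. The arms were apart for 8 of the 9, and for 71% of all genes.

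In DU145 changes were smaller. CDKN2A, CDKN2C and CDK4 rose, and CDK6 and RB1 fell, the largest being the falls of CDK6 (1.27-fold) and RB1 (1.26-fold). CDKN2A rose from 368, 378 and 367 CPM to 449, 490.2 and 413 (0.28 ± 0.05, adjusted p = 1e-04). CDKN2B-AS1, which overlaps it on the other strand, was at 3.61 and 4.71 CPM (0.38 ± 0.14). CDKN2C rose from 53.7, 48.8 and 53.1 CPM to 61.1, 66.7 and 57.2 (0.25 ± 0.06, adjusted p = 0.000781). For both inhibitors every knockdown library was above every control.

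CDK6 of DU145 fell from 49.0, 51.5 and 50.8 CPM to 40.5, 38.1 and 40.9 (-0.34 ± 0.05, adjusted p = 4.67e-06). RB1, the mutated gene of this line, fell from 70.2, 74.9 and 75.0 CPM to 54.7, 62.1 and 58.0 (-0.34 ± 0.05, adjusted p = 6.72e-06). The arms of both stood apart. CDK4 rose from 80.1, 83.8 and 78.3 CPM to 90.5, 93.5 and 85.7 (0.15 ± 0.05, adjusted p = 0.0123), a call lost in DESeq2 (adjusted p = 0.0540) and without knockdown 2 (0.207). CCND3 read 35.2, 37.5 and 34.1 CPM in controls and 30.7, 36.0 and 27.9 after knockdown, so that knockdown 2 lay among the controls (-0.18 ± 0.08, adjusted p = 0.0712). Without that library it passed (-0.29, adjusted p = 0.00147). It also passed with relative log expression factors (0.0409), without the filter (0.0314) and in the 18-library fit (0.0384). With same-numbered libraries treated as blocks its edgeR adjusted p was 0.00703. CCND1 was at 559 ± 12.2 and 570.2 ± 9.11 CPM (0.03 ± 0.05, adjusted p = 0.678) and passed with library totals (0.0355). CDKN1B stood at 45.6 ± 0.35 and 45.3 ± 2.86 CPM (-0.011 ± 0.06, adjusted p = 0.894) and CDKN2D at 5.53 ± 0.43 and 5.58 ± 0.67 (-3e-04 ± 0.11, adjusted p = 0.998). Of 10 tested genes 3 rose, 2 fell and 5 did not pass, against 47.6% of 19377 genes past the threshold, 24.1% higher and 23.6% lower; the medians were 0.014 and 0.012. The arms were apart for 5 of the 10 and for 54.8% of all tested genes.

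**Figure D2:**
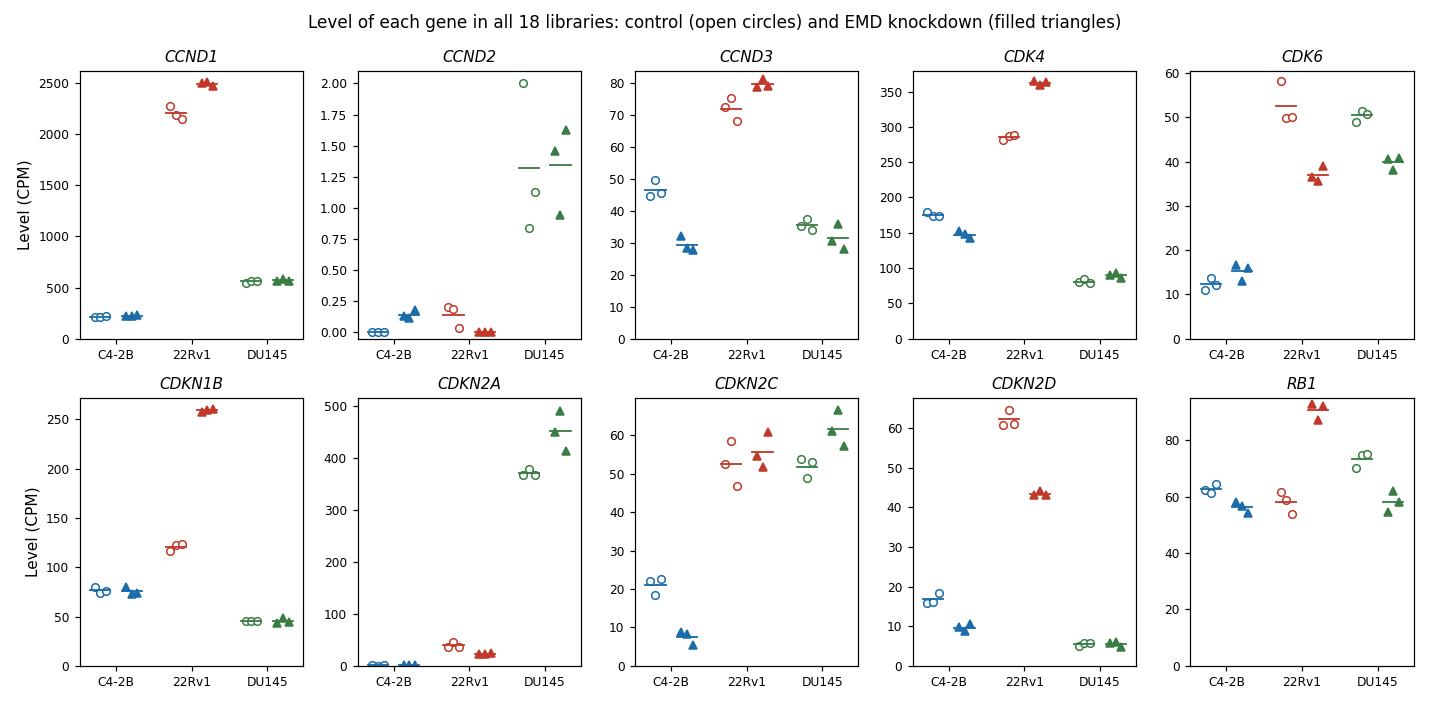
Level of each of the 10 genes (CPM scaled within the line, linear axes) in every library, controls as open circles and EMD knockdown as filled triangles, with lines at the means of 3. CDKN1B rises in 22Rv1, from 121 ± 3.57 to 259 ± 1.96 CPM, and CDKN2C drops in C4-2B, from 21.1 ± 2.28 to 7.42 ± 1.82 CPM.

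None of these genes was past the threshold in the same direction in all 3 lines, beside 4.43% of the 13078 genes tested in each. With library totals in place of TMM scaling CCND1 rose in all 3, by 0.13 in C4-2B (adjusted p = 0.0113), 0.098 in 22Rv1 (0.00482) and 0.074 in DU145 (0.0355). RB1 and CDK4 were past the threshold in each, RB1 higher in 22Rv1 and lower in the other two, CDK4 lower in C4-2B and higher in the other two, with the fragile calls of RB1 in C4-2B and CDK4 in DU145 given above. The difference between responses was tested across 18 libraries for the 9 genes with reads in every group, and 17 of 27 such differences passed. They are not separate results, since the differences of a gene add up across the pairs of lines. In comparisons of C4-2B with 22Rv1, C4-2B with DU145 and 22Rv1 with DU145, 7, 5 and 5 of the 9 passed, beside 56.1%, 45.7% and 55.6% of all tested genes. Without 22Rv1 control 3 the last count was 8 in place of 5, with CDK4, CDK6 and CDKN2C joining. CDK4, at 0.13 ± 0.06 for 22Rv1 less DU145 (adjusted p = 0.0514), also passed in DESeq2 (0.00648), with relative log expression factors (0.0187) and without DU145 control 1 (0.0327) or 3 (0.0355). CDKN1B rose in 22Rv1 only. Its response there was above that in C4-2B (difference of log2 fold changes, C4-2B less 22Rv1, -1.07 ± 0.07, adjusted p = 1.74e-15). It was above that in DU145 by 1.05 ± 0.06 (adjusted p = 2.29e-15). CDKN2C fell in C4-2B only, while it rose in DU145 and did not pass in 22Rv1. Its response in C4-2B was below that in 22Rv1 (-1.56 ± 0.17, adjusted p = 9.97e-08) and DU145 (-1.78 ± 0.17, adjusted p = 1.49e-08). RB1 differed between C4-2B and 22Rv1 by -0.75 ± 0.08 (adjusted p = 9.03e-10) and between 22Rv1 and DU145 by 0.92 ± 0.08 (adjusted p = 3.14e-12). RB1 did not differ past the threshold between C4-2B and DU145 (0.17 ± 0.08, adjusted p = 0.0801), though it passed with library totals (0.0400) and without DU145 control 1 (0.0471). No difference in response passed for CCND1, where the estimates were -0.05 ± 0.05 (C4-2B less 22Rv1), 0.03 ± 0.05 (C4-2B less DU145) and 0.09 ± 0.05 (22Rv1 less DU145). The last passed in DESeq2 (adjusted p = 0.00830), with relative log expression factors (0.0437) and without DU145 control 1 (0.0424). For CCND2, groups without reads make any fitted difference depend on the prior count, and none is given.

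**Figure D3:**
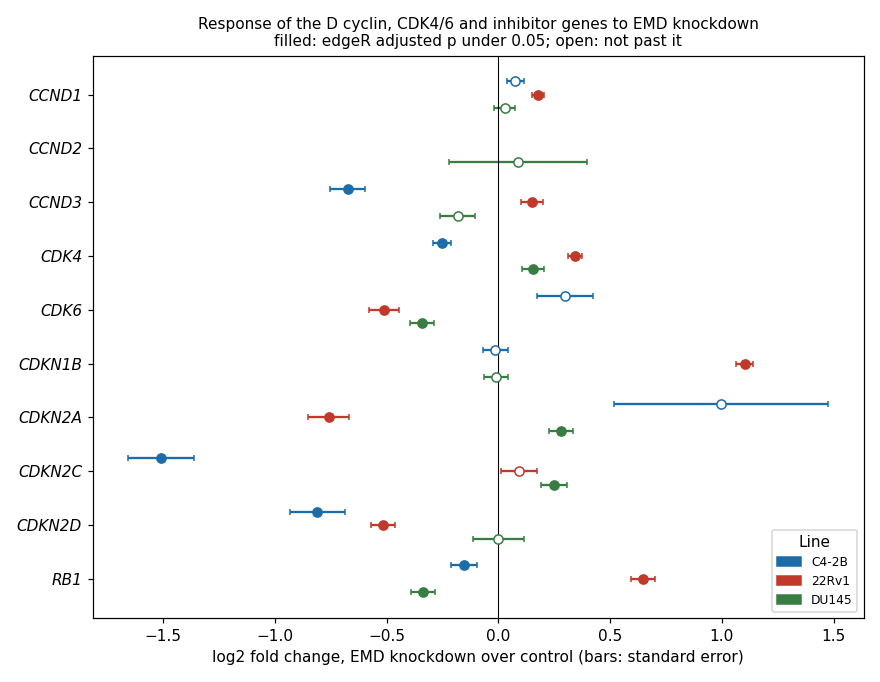
Log2 fold change of EMD knockdown over control for each gene in each line (points, with standard errors), filled where the edgeR adjusted p is under 0.05. The widest values are CDKN2C in C4-2B at -1.51 ± 0.15 and CDKN1B in 22Rv1 at 1.10 ± 0.04; CCND2 was tested in DU145 only.

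The next tier of the G1 machinery was described with 7 lists of genes. E2F target genes of S phase entry all moved one way within each of 2 lines: 16 of 16 fell in C4-2B (median -1.25) and 16 of 16 rose in 22Rv1 (median 0.44). In DU145 4 rose, 2 fell and 10 did not pass (median 0.0052). Of all tested genes 22.3% fell in C4-2B, 33.5% rose in 22Rv1 and 47.6% were called in DU145, where the share called in the list was lower. RRM2, a subunit of ribonucleotide reductase, was at 75.4 and 12.9 CPM in C4-2B (-2.54 ± 0.08), and TK1, the S-phase thymidine kinase, at 149 and 40.9 (-1.87 ± 0.07). In 22Rv1, PCNA, the sliding clamp of DNA polymerase, rose from 265 to 448 CPM (0.76 ± 0.03). In DU145 the origin recognition gene ORC1 (0.44 ± 0.06) and the licensing factor CDT1 (0.33 ± 0.06) rose. The same replication genes had been seen to move in earlier analyses of these data, so the counts are no independent evidence.

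The lists that follow are read against the share of all tested genes called, 41.7% in C4-2B, 67.8% in 22Rv1 and 47.6% in DU145. Of 5 tested genes of cyclins E and A with CDK2 in C4-2B, 4 fell and 0 rose (median -0.73). CCNA2, the S-phase cyclin A2, went from 32.7 to 5.68 CPM (-2.53 ± 0.11), CCNE2, cyclin E2, fell by 1.31 ± 0.18 on the log2 scale and CDK2, the kinase they share, by 0.73 ± 0.08. CCNE1, cyclin E1, gave 0.09 ± 0.13 (adjusted p = 0.61). In 22Rv1 4 rose and 1 fell (median 0.61): CCNE2 rose from 28.4 to 60.2 CPM (1.08 ± 0.06), CDC25A, the phosphatase that activates CDK2, by 0.93 ± 0.06 and CDK2 by 0.28 ± 0.04, whereas CCNE1 fell from 11.9 to 6.94 CPM (-0.77 ± 0.13). In DU145 2 of 6 rose and 1 fell, near that line's share. There CDC25A rose by 0.38 ± 0.06 and CCNA2 by 0.35 ± 0.05, CCNE1 fell (-0.31 ± 0.07), and CCNE2 (-0.08 ± 0.06, adjusted p = 0.336) and CDK2 (0.03 ± 0.05, adjusted p = 0.686) did not pass.

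Inhibitors outside the 10 genes took their own courses. CDKN1A, the p53-induced gene of p21, rose in C4-2B from 233 to 588 CPM (1.34 ± 0.04) and fell in 22Rv1 from 283 to 156 (-0.86 ± 0.04) and in DU145 from 64.7 to 24.0 (-1.44 ± 0.07). CDKN1C, the KIP gene of p57, fell in 22Rv1 from 59.4 to 15.5 CPM (-1.94 ± 0.07), opposite to its relative CDKN1B, and rose slightly in C4-2B (0.38 ± 0.15, adjusted p = 0.0395). In DU145 it was at 0.69 and 0.46 CPM (-0.63 ± 0.40, adjusted p = 0.218). CDKN2B, the INK4 gene of p15 next to CDKN2A, fell in 22Rv1 (-0.61 ± 0.20) and rose in DU145 from 20.6 to 28.4 CPM (0.47 ± 0.06), the directions of CDKN2A in those lines; in C4-2B it was at 1.21 and 1.25 CPM (0.05 ± 0.41, adjusted p = 0.94). CDKN3, a phosphatase of CDK2, fell in C4-2B from 32.4 to 7.91 CPM (-2.03 ± 0.11) and rose in 22Rv1 (0.52 ± 0.06) and DU145 (0.28 ± 0.05). Of these 4 genes 2 rose and 1 fell in C4-2B (median 0.21), 1 rose and 3 fell in 22Rv1 (median -0.73), and 2 rose and 1 fell in DU145 (median -0.17), beside 41.7%, 67.8% and 47.6% of all genes called.

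Among 12 pocket protein and E2F genes, 6 fell and 0 rose in C4-2B (median -0.35), 8 rose and 3 fell in 22Rv1 (0.32), and 4 rose and 4 fell in DU145 (0.020), beside 41.7%, 67.8% and 47.6% of all genes called. E2F1, the founding activator, fell in C4-2B from 54.6 to 22.0 CPM (-1.31 ± 0.08) and in DU145 from 76.9 to 46.0 (-0.75 ± 0.07), and rose in 22Rv1 (0.20 ± 0.04). E2F7, a repressor of the family, fell in C4-2B by 1.65 ± 0.14 and rose in 22Rv1 (0.51 ± 0.07) and DU145 (0.44 ± 0.07). In 22Rv1 the repressor E2F4 rose from 47.8 to 84.4 CPM (0.83 ± 0.05) and the dimer partner TFDP2 fell from 108 to 54.1 (-1.0 ± 0.05). TFDP1 fell in C4-2B (-0.42 ± 0.05) and DU145 (-0.37 ± 0.05) and rose in 22Rv1 (0.26 ± 0.04). The DREAM and MuvB genes repress the cell cycle in quiescence and later drive mitotic genes. Of these 7 genes, 4 fell in C4-2B, 5 rose and 1 fell in 22Rv1, and 2 rose and 1 fell in DU145. The medians were -0.43, 0.25 and -0.04, and the DU145 share called was near that of all genes. MYBL2, an activator that joins MuvB, went from 117 to 17.4 CPM in C4-2B (-2.75 ± 0.07), rose in 22Rv1 (0.48 ± 0.04) and fell in DU145 (-0.70 ± 0.12). FOXM1, the mitotic forkhead factor, fell in C4-2B (-1.72 ± 0.06) and rose in 22Rv1 (0.96 ± 0.04), and LIN9, a MuvB core subunit, rose in DU145 (0.32 ± 0.06).

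Genes that act on the stability or assembly of cyclin D and p27 went both ways. Of 16 tested in C4-2B 3 rose and 6 fell (median -0.01), of 15 in 22Rv1 7 rose and 5 fell (0.08), and of 16 in DU145 4 rose and 5 fell (0.07). Of all tested genes 41.7%, 67.8% and 47.6% were called in these lines. CKS1B, the cofactor with which SKP2 marks p27 for destruction, fell in C4-2B from 47.2 to 22.5 CPM (-1.06 ± 0.08) and in 22Rv1 (-0.14 ± 0.04), and rose in DU145 (0.28 ± 0.05). CRYAB, a small chaperone that pairs with FBXO4 on cyclin D1, fell in C4-2B (-2.20 ± 0.27). SKP2 itself rose in 22Rv1, where CDKN1B RNA rose, from 63.0 to 84.2 CPM (0.42 ± 0.05), and fell in C4-2B (-0.45 ± 0.09) and DU145 (-0.33 ± 0.05). USP2, a deubiquitinase of cyclin D1, fell in 22Rv1 (-0.96 ± 0.13) and DU145 (-1.05 ± 0.11), and FBXO4 fell in DU145 (-1.12 ± 0.09) but rose in 22Rv1 (1.29 ± 0.22). Of the genes of mitogen signalling towards cyclin D, 3 of 15 rose and 3 fell in C4-2B (median 0.08), 3 of 17 rose and 11 fell in 22Rv1 (-0.43), and 7 rose and 7 fell of 17 in DU145 (0.011), so that the share called in C4-2B was near the 41.7% of all genes and those in 22Rv1 and DU145 were above 67.8% and 47.6%. IGF1R, the IGF-1 receptor, fell in C4-2B from 149 to 57.6 CPM (-1.37 ± 0.06) and in 22Rv1 from 112 to 35.2 (-1.67 ± 0.07). FOXO1, a factor that restrains cyclin D, fell in 22Rv1 (-1.50 ± 0.10) and rose in DU145 (0.59 ± 0.09). JUN, an AP-1 subunit, rose in C4-2B (0.59 ± 0.05) and fell in 22Rv1 (-0.42 ± 0.04) and DU145 (-1.40 ± 0.05). SPRY4, a feedback inhibitor of ERK signalling, rose in DU145 (0.66 ± 0.07) and fell in 22Rv1 (-0.53 ± 0.13).

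**Figure D4:**
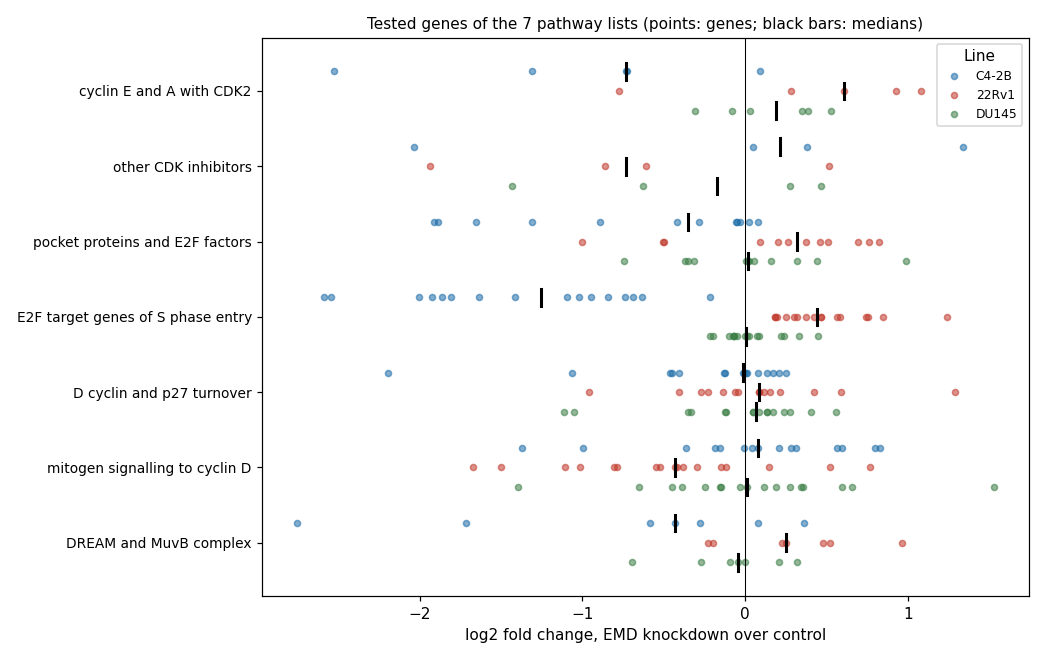
Log2 fold change of every tested gene of the 7 pathway lists in each line (points), with medians as black bars. E2F target genes lie wholly below 0 in C4-2B (median -1.25) and wholly above 0 in 22Rv1 (median 0.44), and straddle 0 in DU145 (median 0.0052).

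To see which other genes followed the same course, log2 CPM was centred within each line and correlated over the 18 libraries with 11847 genes of at least 5 CPM on average. These correlations are descriptions: libraries of a group share their treatment, so a large knockdown effect alone gives a high value. CDKN2C ran closest to the centromere histone gene CENPA (Pearson r = 0.98) and the cytokinesis gene RACGAP1 (0.96). CCND3 ran closest to MYBL2 (0.95), described above, and to the tubulin gene TUBB (0.95). CDK4 ran with the translation helicase gene EIF4A1 and the proteasome gene PSMB7 (both 0.98). CDKN1B ran with the RNA-binding protein gene HNRNPDL (0.99). RB1 ran with SLC44A2 and CRYBG1 (both 0.98), CDKN2D with MCCC2 (0.97) and UBE2E3 (0.96), CCND1 with SSH1 (0.95) and SETD2 (0.92), CDK6 with SEC61A2 (0.94) and SLC48A1 (0.93), and CDKN2A with LRRN2 (0.89) and PRPH (0.88).

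Of the 10 genes 3 lie on chromosome 12, far from each other. On GRCh38 (GENCODE 29, whole gene, counts over all its exons) CCND2 spans 4273772 to 4305350, CDKN1B 12715058 to 12722371 and CDK4 57747727 to 57756013 on chromosome 12. CCND1 lies on chromosome 11 (69641087 to 69654474), CCND3 on 6 (41934933 to 42050357), CDK6 on 7 (92604921 to 92836594) and CDKN2A on 9 (21967753 to 21995301). CDKN2C lies on chromosome 1 (50960745 to 50974633), CDKN2D on 19 (10566462 to 10569059) and RB1 on 13 (48303726 to 48599436). CDKN2A counts merge the p16INK4A and p14ARF transcripts of the 2 starts shown above, so the changes of CDKN2A cannot be assigned to either product.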

How the data were processed

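The authors deposited expected counts per gene, all of them whole. STAR, RSEM 1.3.1 and the build GRCh38 are named in the submitters' processing notes; annotation release, strandedness and rounding are not given in the sources used here. In DU145, 92 spike-in rows and 30 second copies of pseudoautosomal genes were left out. All 18 sample columns were used. Within each line genes were filtered by filterByExpr (minimum count 10, total 15), scaled by TMM and tested with the robust quasi-likelihood F test of edgeR 4.0.16 (R 4.3.3; limma 3.58.1), with Benjamini-Hochberg adjustment over all genes tested in the line and a threshold of 0.05; rose, fell and changed are used only past it. Each standard error was computed as fold change divided by √F. Between lines 1 fit with a coefficient per group covered 18 libraries and genes found in all 3 tables (18445, of which 17152 were tested). Median fold changes at similar level are over 501 genes. DESeq2 1.42.0 and other scalings were alternatives. The test was checked on simulated data. The genes and lists were chosen with earlier results of these data known. Beside the 10 genes, EMD and 6 fixed genes (CDKN1A, CDKN1C, CDKN2B, CCNE1, CCNE2, CDK2), the text names up to 2 genes per list and line by smallest adjusted p, and overlapping genes by position; a few genes that the rule or the marker lists hold are not reported here.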

Additional observations from a re-analysis of the deposited data

Results flagged for a closer look

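The 9 genes with reads in every group gave 27 differences between lines in the response to knockdown. Of these, 17 passed their own test (edgeR, 18 libraries). Of all tested genes 56.1% passed for C4-2B less 22Rv1, 45.7% for C4-2B less DU145 and 55.6% for 22Rv1 less DU145. The 27 are not separate results, since the differences of a gene add up across the pairs of lines. The values that passed are differences of log2 fold changes. For C4-2B less 22Rv1 they were CDKN2A 1.81, CDK6 0.85, CDK4 -0.55, RB1 -0.75, CCND3 -0.78, CDKN1B -1.07 and CDKN2C -1.56. For C4-2B less DU145 they were CDK6 0.62, CDK4 -0.42, CCND3 -0.51, CDKN2D -0.82 and CDKN2C -1.78. For 22Rv1 less DU145 they were CDKN1B 1.05, RB1 0.92, CCND3 0.27, CDKN2D -0.57 and CDKN2A -1.10. The CDKN2A value against C4-2B rests on 6 to 28 reads per C4-2B library. That of CCND3 between 22Rv1 and DU145 did not pass without DU145 control 2 (adjusted p = 0.0506) or DU145 knockdown 3 (adjusted p = 0.0599).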

How the results depend on the processing

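Counts of changed genes stayed within 1.5 times the reported count with 2 exceptions. In C4-2B 8 of the cyclin D genes passed in the fit of all 18 libraries, against 5. The 8 include CCND2, which was not tested within the line, and without it the count stayed within that limit. The response of 22Rv1 less DU145 passed for 4 to 8 of 9 genes with 1 library left out, against 5. Leaving out 1 library at a time gave 4 to 6 in C4-2B, 7 to 8 in 22Rv1 and 5 in DU145. Values that changed sign all belonged to differences short of the threshold. With library totals in place of TMM these were CDKN1B at 0.037 in C4-2B and 0.036 in DU145, CDKN2D in DU145 at 0.048, the response difference of CCND1 between C4-2B and 22Rv1 at 0.027, and the control levels of CDK6 (0.13) and CDKN2C (0.081) in 22Rv1 less DU145. In DU145 the fit of all 18 libraries gave 0.004 for CDKN1B and 0.0093 for CDKN2D, and the fit without a filter 4e-04 for CDKN2D. Leaving out 1 library gave CDKN1B between -0.057 and 0.012 in C4-2B and between -0.066 and 0.057 in DU145. It gave CDKN2D between -0.075 and 0.13 and CCND2 between -0.16 and 0.47 in DU145, and the CDKN1B response of C4-2B less DU145 between -0.060 and 0.017. With a replicate block, 5 cyclin D genes passed in C4-2B, 8 in 22Rv1 and 6 in DU145, where CCND3 joined (adjusted p = 0.00703), against 6623, 11146 and 9860 genes in all. The block also turned CDKN2D in DU145 to 0.0033 and the control level of CDK6 in 22Rv1 less DU145 to 0.034; CDK4 passed in the response of 22Rv1 less DU145 with the block (adjusted p = 0.0401), as in other settings. Same-numbered libraries deviated with r of -0.04 to 0.02 in C4-2B, -0.02 to 0.03 in 22Rv1 and 0.04 to 0.29 in DU145. In DU145 2 of the 3 values were over 0.1, so they do not settle whether its libraries are paired. The labels name no pairs, and the numbers were not taken as pairs in any line. In each line 1 of 3 controls correlated best with its own number. Depth limits CCND2 in all lines and CDKN2A in C4-2B.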

Other observations

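Of 74 listed pathway genes tested in all 3 lines, 3 passed in one direction in each, a share near the 4.43% of all 13078 genes tested in the 3 lines; they were picked out after their values were seen. AMBRA1, the substrate receptor of the ubiquitin ligase that degrades D cyclins, rose by 0.21 ± 0.08 in C4-2B (log2, SE; edgeR adjusted p = 0.0396), 0.15 ± 0.06 in 22Rv1 (adjusted p = 0.0224) and 0.17 ± 0.07 in DU145 (adjusted p = 0.0437). FOXO3, a forkhead factor that can induce CDKN1B, fell by 0.15 ± 0.04 in C4-2B, 0.38 ± 0.06 in 22Rv1 and 0.25 ± 0.06 in DU145. IRS1, the adaptor between the IGF-1 and insulin receptors and PI3 kinase, fell by 1.00 ± 0.11, 0.79 ± 0.06 and 0.15 ± 0.06 in the same order.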
